A study of Mus musculus with 27 samples.

Results

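The spliceosomal Sm, LSm and snRNP proteins were followed at the RNA level in single myofibers of the mouse *tibialis anterior*, a muscle of the lower leg. The members are all non-control probes of the array whose gene name begins with *Snrp* and a letter from a to g, with *Snrnp* and a digit, or with *Lsm* and a digit. These were 48 probes of 30 genes, out of 55681 probes in all. Of these 48 probes, 41 probes of 26 genes had values on enough arrays to be tested, beside 22154 probes of the whole array. WT is the wild type, with 8 fibers from 2 mice. Smn1deltaSKM carries a muscle-specific deletion in *Smn1*, made by a Cre recombinase under the human skeletal actin promoter acting on floxed *Smn1* alleles (HSA-Cre:Smn F7/F7), with 12 fibers from 3 mice. By the study's text, exon 7 lies between the LoxP sites of these alleles. Smn1deltaSKM+AFS has the same deletion and received, by injection into the tail vein, amniotic fluid stem cells selected for c-kit from fetuses that carry GFP, with 7 fibers from 2 mice by the labels. In the study's text, the results give fewer fibers and more mice for that group than the labels. Its methods give the 7 fibers of the labels, but a total of arrays below the sum of its groups. This conflict was not resolved, and the labels are followed in every value of that group. All mice were male, and the labels give an age of 3 months for every group. By the methods of the study, the cells were injected at that age and the mice were killed later, so that the treated mice may have been older than their label. Each fiber had an Agilent array to itself, hybridized after its RNA had been amplified. Values are the log2 of the scanner's processed signal minus the 75th percentile of the array. A value therefore places a probe relative to the other probes of its fiber, and a change in the total RNA of a fiber cannot be seen in it.

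The spliceosome removes introns with the help of small nuclear ribonucleoproteins, the snRNPs, each built on a small nuclear RNA. On the U1, U2, U4 and U5 RNAs and on their minor counterparts, the Sm proteins form a closed ring, and the SMN complex, of which the SMN protein is the core, loads that ring onto the RNA in the cytoplasm. The U6 RNA carries a ring of related LSm proteins, while a ring in which Lsm1 takes the place of Lsm8 acts in the cytoplasm in the decay of messenger RNA. The U7 snRNP, which processes histone transcripts, holds Lsm10 and Lsm11 in place of a pair of Sm proteins and is also assembled by the SMN complex.

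The WT arrays shared a single slide, and no array of the other groups was scanned on their day, so that batch and genotype cannot be told apart in any comparison with WT. The Smn1deltaSKM fibers lay on 3 slides and the Smn1deltaSKM+AFS fibers on 3 slides, over 2 scan days that both groups shared. The medians of probes with a value per array were 25147.5 in WT, 31411 in Smn1deltaSKM and 27412 in Smn1deltaSKM+AFS. The targeted gene served as a check of the labels. At the *Smn1* probe A_55_P2048848 the mouse means were 1.85 ± 0.015 for WT (SD, n = 2), 0.16 ± 0.22 for Smn1deltaSKM (SD, n = 3) and 0.24 ± 0.82 for Smn1deltaSKM+AFS (SD, n = 2). The other *Smn1* probe, A_55_P2048560, differed by 0.19 between Smn1deltaSKM and WT (limma, adjusted p = 0.716), and whether either probe lies in the deleted part was not determined. All 8 markers of myofibers on the list were above background in at least 50% of the fibers of every group, and their summed signal ranged from 2435 to 4180 in WT, from 1772 to 2892 in Smn1deltaSKM and from 2504 to 3350 in Smn1deltaSKM+AFS. Of 5 fibroblast markers, 1 was above background in at least 50% of the WT fibers and 3 in each deleted group, and their summed signal ranged from 0.319 to 61.2 in WT (median 0.649), from 0.518 to 20.03 in Smn1deltaSKM (median 5.27) and from 0.390 to 16.5 in Smn1deltaSKM+AFS (median 8.09). Of 5 endothelial markers, 2, 5 and 3 were above background in as many fibers of WT, Smn1deltaSKM and Smn1deltaSKM+AFS, and their summed signal ranged from 5.33 to 21.2, from 8.53 to 18.8 and from 12.7 to 20.5. Of 3 adipocyte markers, 1, 3 and 2 were above background likewise, with median sums of 0.425, 0.740 and 0.680. The 3 erythrocyte markers had median sums of 0.505, 0.832 and 11.1, with overlapping ranges of 0.144 to 30.9, 0.661 to 27.7 and 0.705 to 39.5. Fewer nuclei or cells of a type and less RNA per cell cannot be told apart. The part of these other cells in the results was not tested.

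The probes are 60 bases long. The first 30 bases of those that carry the called differences, and of the other tested probe of the same gene where there is one, are shown here as the scanner files list them, 5′ to 3′, because several genes gave a different answer at each of their probes.
Lsm14b A_52_P16563: taaatttgttgcatgagtaaatgtgtcaga
Lsm12 A_52_P407871: acattgtagtcatggaagaagttgttatta
Lsm2 A_55_P2023181: tacatttgagggatggaaagatctgtcccg
Lsm2 A_55_P2023188: tgctcggagccgatggtgttttgggggaaa
Snrnp27 A_51_P346884: cttggatgcttgctaggtgttcttaaaaac
Snrnp27 A_55_P2141729: aatgctggtgattctaggcacacaccatca
Snrpc A_55_P2153633: cagttttcacttatattgtgaaatgtgaaa
Snrpc A_55_P1954001: ggaaacttcccttcctaactgaatattttt
In the mm9 coordinates of the array design, the *Lsm14b* probe lies at chr2:179769865-179769924 and the *Lsm12* probe at chr11:102026712-102026771, on the minus strand. The *Lsm2* probes lie at chr17:35122775-35122834 and, 3585 bases upstream, at chr17:35119190-35119249. The *Snrnp27* probes, both on the minus strand, lie at chr6:86625232-86625291 and chr6:86625666-86625725, and the *Snrpc* probes at chr17:27988857-27988916 and chr17:27988801-27988860, where they share 4 bases.

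The first question was whether the transcripts of the proteins that the SMN complex assembles, and of their relatives, differed in fibers with the *Smn1* deletion. Of the 41 tested members, 5 were lower in Smn1deltaSKM than in WT and none was higher (limma on mouse means, adjusted p under 0.05 over all probes). They were *Lsm14b*, *Lsm12*, *Lsm2*, *Snrnp27* and *Snrpc*, each at 1 probe. Over the whole array 21.5% of the probes were called, 14.1% as lower and 7.34% as higher, beside 12.2% of the members. By direction alone, 29 of the 41 members were lower. Their median difference was -0.34, against -0.14 over all probes, where 55.6% were lower. This gap of -0.20 is within the SD of 0.24 between mice of a group, and it was -0.052 without WT mouse 1, -0.32 without WT mouse 2, -0.37 without Smn1deltaSKM mouse 1 and -0.092 without Smn1deltaSKM mouse 3. The mouse means of Smn1deltaSKM and WT did not overlap for 17 of 41 members, 16 of them, or 39% of the members, lower. Over all probes they did not overlap for 55.4%, with 33.9% lower and 21.4% higher. Another centring of the arrays, on the median of the probes with values everywhere, moved the median of all probes from -0.14 to 0.077 and the share of lower calls among all calls from 65.8% to 45%. Under it 23 of 41 members were lower, beside 46.8% of all probes, and 2 were called, both lower, beside 18%.

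**Figure D1:**
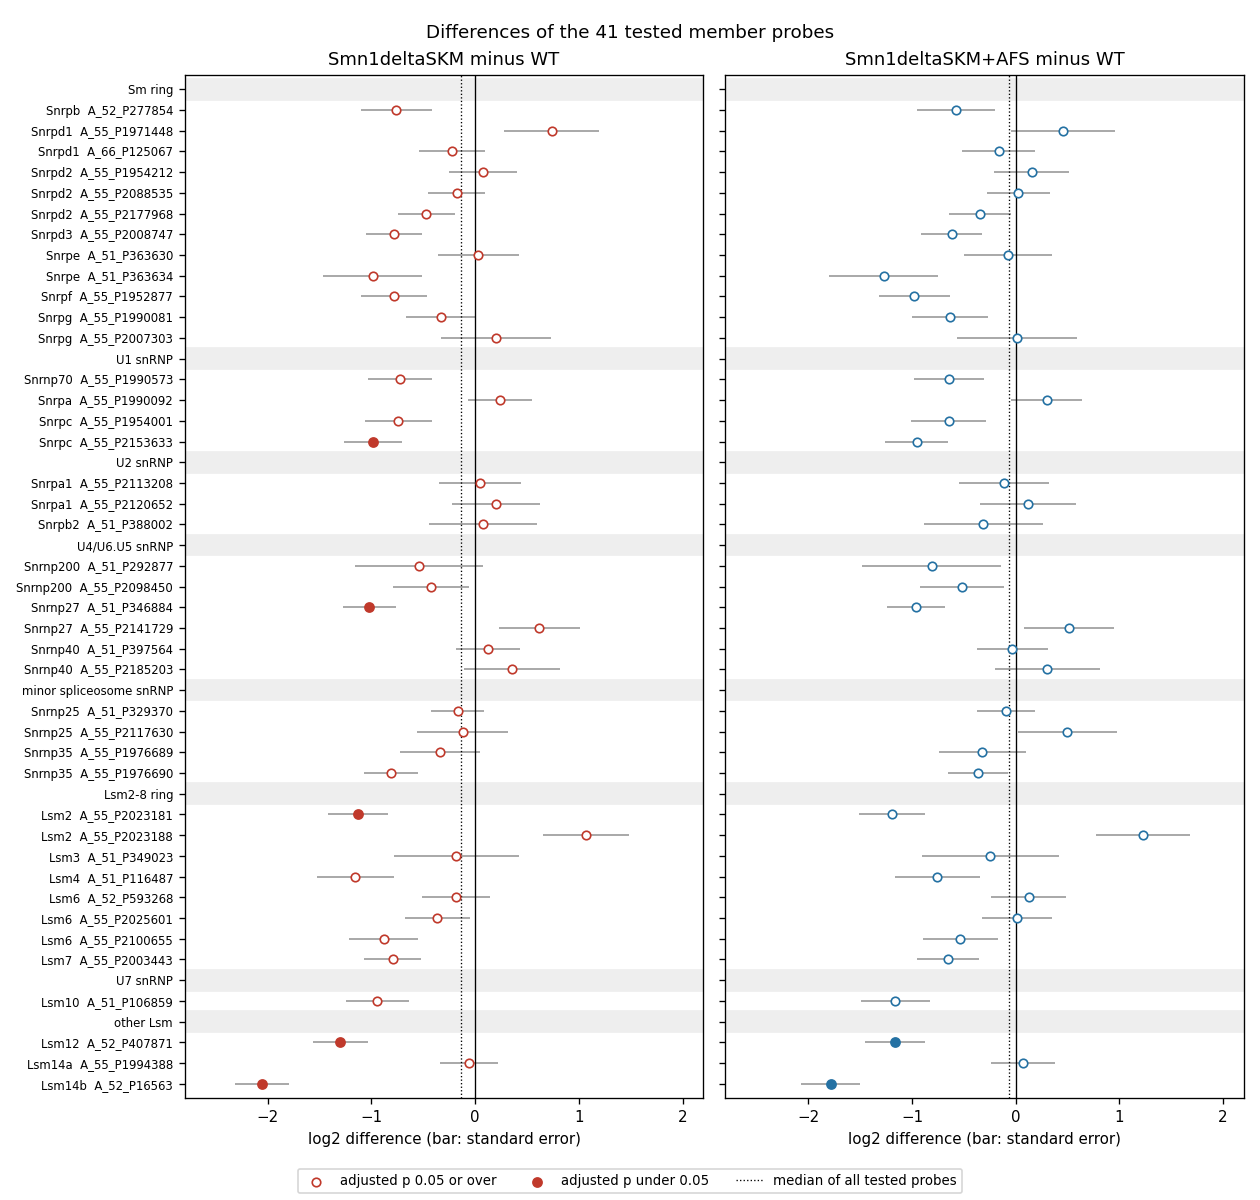
Log2 difference of each of the 41 tested member probes from WT, in Smn1deltaSKM (left) and Smn1deltaSKM+AFS (right), with the standard error of limma, grouped by family. Filled points had an adjusted p under 0.05, and the dotted line marks the median of all tested probes, at -0.14 on the left and -0.065 on the right. The 5 filled points on the left and the 2 on the right all lie below 0.

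*Lsm14b* showed the largest difference among the members. Lsm14b is a cytoplasmic RNA-binding protein of messenger ribonucleoproteins and P-bodies, and not a part of the spliceosome. Its probe ranged from -0.69 to 0.98 over the WT fibers, with a median of 0.23, from -2.85 to -1.12 over the 11 Smn1deltaSKM fibers with a value, with a median of -1.82, and from -2.27 to -0.96 over the 6 Smn1deltaSKM+AFS fibers with a value, with a median of -1.67. The fibers of neither deleted group overlapped those of WT. The mouse means were 0.02 and 0.40 in WT, -1.77, -1.91 and -1.85 in Smn1deltaSKM, and -1.65 and -1.50 in Smn1deltaSKM+AFS. The difference of Smn1deltaSKM from WT was -2.06 ± 0.26 (SE), or 4.16-fold lower (limma, adjusted p = 0.00681). With the background corrected by normexp and the arrays quantile normalized it shrank to -1.01, with an adjusted p of 0.0146 in limma. A second *Lsm14b* probe, A_55_P1987131, was not well above background on any of the 27 arrays.

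*Lsm12* came next. The protein has an LSm-like domain and binds RNA, but it is not counted among the core proteins of the snRNPs. Over the WT fibers its probe ranged from 1.84 to 3.21 with a median of 2.98, over the Smn1deltaSKM fibers from 0.90 to 1.91 with a median of 1.54, and over the Smn1deltaSKM+AFS fibers from 1.21 to 1.98 with a median of 1.67. Of the 12 Smn1deltaSKM fibers, 11 lay below the lowest WT fiber. It differed by -1.30 ± 0.27 (SE), or 2.46-fold lower (limma, adjusted p = 0.0167).

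The other 3 called members belong to the spliceosome itself. *Lsm2* encodes a subunit of both LSm rings. At the called probe, A_55_P2023181, the WT fibers ranged from 1.23 to 2.91 with a median of 2.23 and the Smn1deltaSKM fibers from 0.49 to 1.77 with a median of 1.08. The groups differed by -1.13 ± 0.29 (SE, limma, adjusted p = 0.0309), and 7 of 12 Smn1deltaSKM fibers lay below every WT fiber. *Snrnp27* encodes a protein of the U4/U6.U5 tri-snRNP. At its probe A_51_P346884 the WT fibers ranged from 3.20 to 4.24 with a median of 3.82, and the Smn1deltaSKM fibers from 2.10 to 3.21 with a median of 2.81. The groups differed by -1.02 ± 0.26 (SE, limma, adjusted p = 0.0286), and the groups overlapped by 1 Smn1deltaSKM fiber only. *Snrpc* encodes U1-C, which helps the U1 snRNP to recognize the start of an intron. Its probe A_55_P2153633 ranged from 0.39 to 1.87 over 7 WT fibers with a value, with a median of 1.39, and from -0.43 to 1.15 over the Smn1deltaSKM fibers, with a median of 0.38. It differed by -0.99 ± 0.28 (SE, limma, adjusted p = 0.0401). With the measured signal kept below background this shrank to -0.49 (limma, adjusted p = 0.349).

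**Figure D2:**
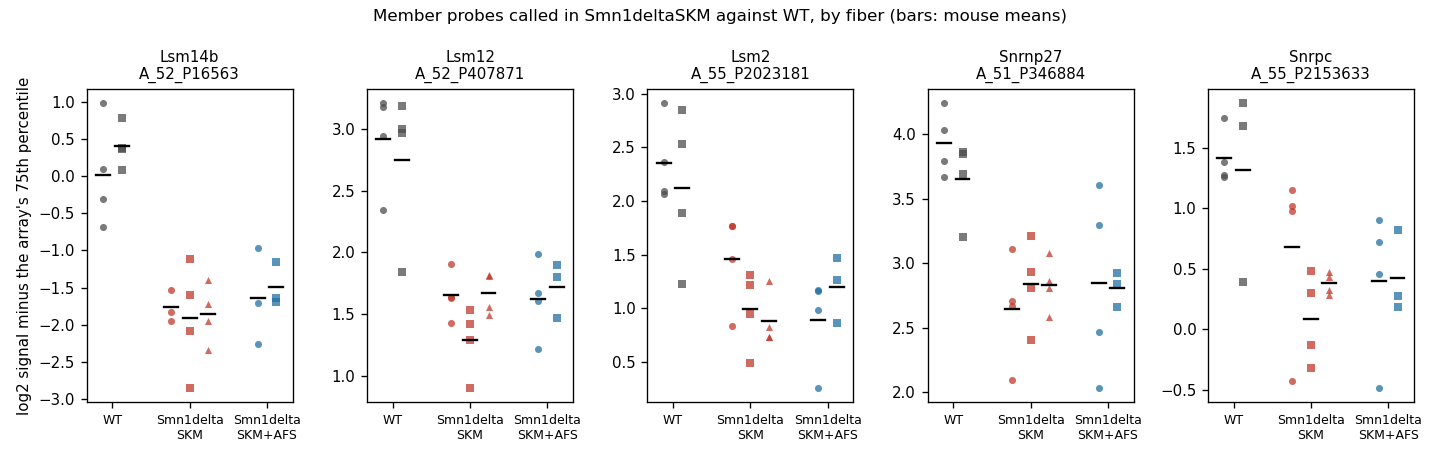
Values of the 5 member probes called in Smn1deltaSKM against WT, 1 point per fiber (vertical axis: log2 signal minus the 75th percentile of the array), with circles, squares and triangles for mice 1, 2 and 3 of a group and a bar at each mouse mean. The Smn1deltaSKM fibers of Lsm14b, between -2.85 and -1.12, all lie below the WT fibers, while the groups overlap at the other 4 probes.

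These calls rested on few mice. Without WT mouse 1, or without WT mouse 2, no member and no other probe of the array was called in either comparison with WT, where the single WT mouse left is assumed to vary like the other groups. In Smn1deltaSKM against WT, 5 and 8 members then had an unadjusted p under 0.05 in limma, beside 20.9% and 27% of all probes, while with both WT mice there were 14 of 41, or 34.1%, beside 39%. Without Smn1deltaSKM mouse 2 the call of *Lsm14b* alone was left, beside 8.54% of all probes, without Smn1deltaSKM mouse 3 *Lsm14b* and *Lsm12* were called together with *Lsm4* at -1.45 (limma, adjusted p = 0.0460), beside 9.67% of all probes, and without Smn1deltaSKM mouse 1 the count rose to 19, as described further on. With mouse 1 or mouse 2 of Smn1deltaSKM+AFS left out, which enter only through the shared variance, *Snrpc* was lost and the other *Lsm2* probe was called as higher, at 1.07 (limma, adjusted p = 0.0438). Over all probes 16% were then called in Smn1deltaSKM against WT.

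The 7 Sm proteins form the ring that the SMN complex assembles, and all 12 of their probes were tested. None was called in any comparison. Over all probes 21.5% were called in Smn1deltaSKM against WT and 7.34% in Smn1deltaSKM+AFS against WT. Of the 12 probes, 8 were lower in Smn1deltaSKM and 4 higher, where 55.6% of all probes were lower. Their median difference was -0.28, against -0.14 over all probes. *Snrpd3*, the gene of SmD3, came nearest. Its values ran from 4.40 to 5.32 in WT with a median of 4.91, and from 3.46 to 4.77 in Smn1deltaSKM with a median of 4.21. It differed by -0.78 ± 0.27 (SE, limma, adjusted p = 0.0704), and 7 of 12 Smn1deltaSKM fibers lay below the lowest WT fiber. *Snrpb*, the gene of SmB, ran from 1.46 to 3.63 in WT with a median of 3.38 and from 1.51 to 3.19 in Smn1deltaSKM with a median of 2.17, a difference of -0.76 ± 0.34 (SE, limma, adjusted p = 0.137). The lowest value of both groups was that of WT fiber 8. *Snrpf*, the gene of SmF, ran from 0.80 to 3.91 in WT with a median of 2.93 and from 1.13 to 2.42 in Smn1deltaSKM with a median of 1.79, a difference of -0.78 ± 0.31 (SE, limma, adjusted p = 0.104).

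The other Sm genes have several probes each, which did not move as one. At *Snrpe*, the gene of SmE, the probe whose ends lie 2377 bases apart in the genome (A_51_P363634) ran from 1.35 to 3.13 in WT with a median of 2.45 and from 0.40 to 2.54 in Smn1deltaSKM with a median of 1.24, a difference of -0.99 ± 0.48 (SE, limma, adjusted p = 0.162). The probe further 3′ in the same transcript, A_51_P363630, differed by 0.03 ± 0.39 (SE, limma, adjusted p = 0.959). At *Snrpd1*, the gene of SmD1, A_55_P1971448 differed by 0.74 ± 0.45 (SE) and A_66_P125067 by -0.22 ± 0.32 (SE). For *Snrpd2*, the gene of SmD2, the differences were 0.08, -0.18 and -0.47, each with an SE of 0.28 to 0.33. At *Snrpg*, the gene of SmG, they were -0.33 and 0.20 with SEs of 0.34 and 0.53. No direction can be given for these 4 genes from their probes.

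Of the proteins specific to the U1 snRNP, *Snrnp70* (U1-70K) had mouse means of 3.83 ± 0.071 for WT (SD, n = 2) and 3.11 ± 0.33 for Smn1deltaSKM (SD, n = 3), which differed by -0.72 (limma, adjusted p = 0.119), and 7 of 12 Smn1deltaSKM fibers lay below the lowest WT fiber. *Snrpa* (U1-A) differed by 0.24 (limma, adjusted p = 0.593). The 3 probes of the U2 proteins *Snrpa1* (U2-A′) and *Snrpb2* (U2-B″) differed by 0.045 to 0.21, and none was called. Of the 6 probes of the U4/U6.U5 proteins, *Snrnp27* was called at 1, and those of the helicase gene *Snrnp200* lay at -0.54 and -0.43 and those of *Snrnp40* at 0.12 and 0.36. The U11/U12 proteins of the minor spliceosome gave 4 tested probes of 2 genes, all with negative differences from -0.81 to -0.12, where 55.6% of all probes were lower. Of these, *Snrnp35* (A_55_P1976690) had the lowest adjusted p, 0.0586 in limma. *Snrnp48* had values on 3 WT, 10 Smn1deltaSKM and 5 Smn1deltaSKM+AFS arrays and was not tested.

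The ring on U6 and its cytoplasmic relative gave 8 tested probes of 5 genes, 7 with a negative and 1 with a positive difference. Over all probes 55.6% were lower. Several of the negative probes belong to *Lsm6*, where 1 pair shares 25 positions, so they are not separate results. The median was -0.58, against -0.14 over all probes. *Lsm2* was the only gene called, at 1 of the 8 probes, beside 21.5% of all probes. *Lsm4* ran from 2.24 to 4.61 in WT with a median of 4.16 and from 1.17 to 3.61 in Smn1deltaSKM with a median of 2.99, a difference of -1.16 ± 0.37 (SE, limma, adjusted p = 0.0575). *Lsm7* differed by -0.79 (limma, adjusted p = 0.0682) and *Lsm3* by -0.18 ± 0.60 (SE), the members' widest but one. The 2 probes of *Lsm5* had values on 9 and 15 of 27 arrays, another *Lsm6* probe, A_52_P422755, on 6, and the probe of *Lsm1*, the subunit that marks the cytoplasmic ring, on 7 WT, 3 Smn1deltaSKM and 1 Smn1deltaSKM+AFS arrays, so that these were not tested. With no filter and the measured signal kept, *Lsm5* (A_55_P2061437) was called as lower in Smn1deltaSKM, at -1.14 (limma, adjusted p = 0.0486), beside 12.4% of all probes.

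Among the U7 proteins, *Lsm10* is read by 10 spots of 1 probe. It ran from 0.69 to 2.27 in WT with a median of 1.63, from -0.23 to 1.37 in Smn1deltaSKM with a median of 0.66 and from -0.88 to 1.10 in Smn1deltaSKM+AFS with a median of 0.36. The difference of Smn1deltaSKM from WT was -0.94 ± 0.31 (SE, limma, adjusted p = 0.0587), and that of Smn1deltaSKM+AFS was -1.16 ± 0.34 (SE, limma, adjusted p = 0.0700). All mice of both deleted groups lay below both WT mice, while their fibers overlapped with WT. *Lsm11* was not well above background on any array. *Lsm14a*, the close relative of *Lsm14b*, differed by -0.06 ± 0.28 (SE, limma, adjusted p = 0.891), and by 0.81 with normexp and quantile normalization (limma, adjusted p = 0.0333).

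Of 13 genes with more than 1 tested probe, 6 had probes that pointed in opposite directions and 7 did not, and at all 3 of these genes with a called probe another probe was not called. The gap was widest at *Lsm2*. Its second probe, A_55_P2023188, lies nearer the 5′ end of the same transcript and ran from -1.78 to -0.77 in WT with a median of -1.26 and from -0.61 to 0.53 in Smn1deltaSKM with a median of -0.28, without overlap and in the opposite direction to the called probe. Its difference was 1.07 ± 0.42 (SE, limma, adjusted p = 0.0948). Over the 27 fibers the 2 *Lsm2* probes correlated at r = -0.68, and at -0.31 with the group means taken off. At *Snrnp27* the probes differed from WT by -1.02 and 0.62 and correlated at r = -0.21, which became 0.30 with the group means taken off. The second one, A_55_P2141729, was designed on another transcript record of the gene than the first. These are correlations over fibers that share slides and mice, given as a description.

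Probes of a gene that overlap by 25 bases or more correlated closely over the fibers, but not they alone. The *Snrpc* pair, which shares 4 bases, correlated at r = 0.91. Pairs without overlap ran from r = -0.68 at *Lsm2* to 0.90 at *Lsm6* (A_52_P593268 and A_55_P2025601). The *Snrpa1* pair shares 53 bases and correlated at r = 0.96 over 27 fibers, with differences of 0.045 and 0.21 from WT. The *Snrpd2* pair A_55_P2177968 and A_55_P2088535 shares 54 bases and correlated at r = 0.94, with -0.47 and -0.18. For *Lsm6* the probes A_55_P2100655 and A_55_P2025601 share 25 positions with 1 different base, C12T when counted from the first shared base, shown in capitals below.
Lsm6 A_55_P2100655: ggttctcttacCatcttagttggcc
Lsm6 A_55_P2025601: ggttctcttacTatcttagttggcc
Their differences from WT were -0.88 (limma, adjusted p = 0.0871) and -0.36 (limma, adjusted p = 0.414), and they correlated at r = 0.90. The differences of the *Lsm6* pair lay 0.52 apart on the log2 scale, those of the *Snrpa1* pair 0.16 and those of the *Snrpd2* pair 0.29, where the overlaps are longer.

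**Figure D3:**
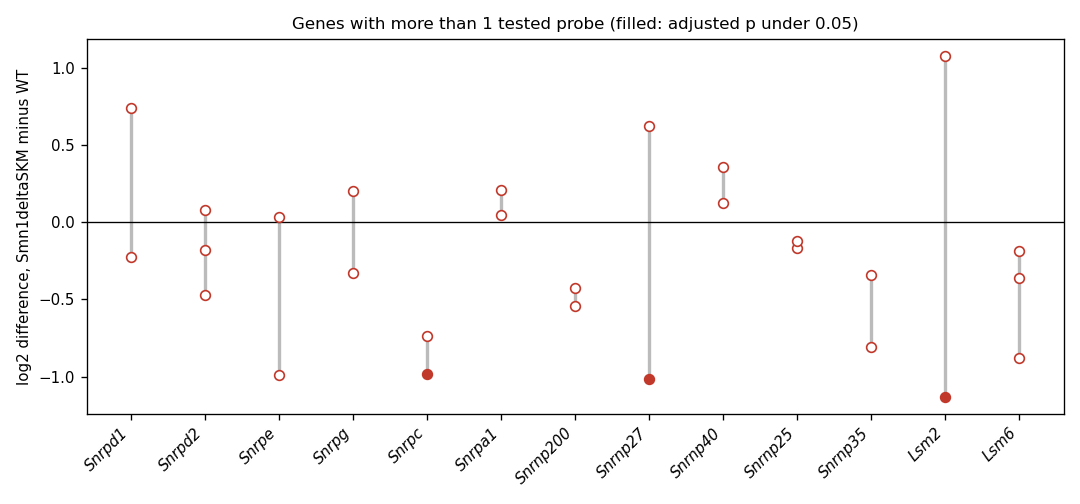
Log2 difference of Smn1deltaSKM from WT (vertical axis) at each probe of the 13 genes with more than 1 tested probe, joined by a line within a gene; filled points had an adjusted p under 0.05. The probes of Lsm2 lie at -1.13 and 1.07 and those of Snrnp27 at -1.02 and 0.62, on both sides of 0.

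The mouse medians of Smn1deltaSKM lay apart in these genes. For each mouse, the median over the tested members of the deviation from the WT mean was 0.029 in mouse 1, -0.47 in mouse 2 and -0.67 in mouse 3, against -0.12, -0.20 and -0.17 over all probes. Mouse 1 held the highest of the 3 mouse means for 32 of 41 members, against 39% of all probes, and mouse 3 the lowest for 22 of 41, against 22.4%. *Snrpe* (A_51_P363630) is an example, at 4.58 in mouse 1, 3.72 in mouse 2 and 3.30 in mouse 3, with the WT mice at 3.99 and 3.67. *Lsm4* and *Lsm10* ran the other way, with mouse 1 the lowest at 2.13 and 0.29. Of its fibers, 3 were scanned on another day than the rest of the group. These had a median over the 38 members with values on every array of 0.15, -0.44 and 0.16, and the fiber of mouse 1 scanned on the later day, 0.28. No fiber of mouse 1 shared a slide with mice 2 and 3, so that mouse and slide cannot be told apart. Other values moved with mouse 1 as well. Its arrays had 23170 to 27996 probes with a value, against 30919 to 37580 in mice 2 and 3. Its summed endothelial markers began at 8.53 and all lay below those of mice 2 and 3, 11.3 to 18.8. Its summed immune markers ran from 19.8 to 23.2 against 23.8 to 36.0, also without overlap. The other lists overlapped, and some reached higher in mouse 1. Fibroblast sums ran from 5.11 to 20.03 against 0.518 to 9.90, and myofiber sums from 1781 to 2892 against 1772 to 2380. The part of these in the results was not tested.

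Leaving out Smn1deltaSKM mouse 1 raised the members called from 5 to 19, 18 of them lower, while the share over all probes rose from 21.5% to 43.8%. Among these were the Sm genes *Snrpb* at -1.07 (limma, adjusted p = 0.00859), *Snrpd3* at -0.91 (limma, adjusted p = 0.0151), *Snrpe* (A_51_P363634) at -1.44 (limma, adjusted p = 0.0108) and *Snrpf* at -0.95 (limma, adjusted p = 0.0253). The member that was called as higher was the second *Snrnp27* probe, at 0.99 (limma, adjusted p = 0.0167). Without only the 3 fibers scanned on the other day, 8 members were called, 7 of them lower, beside 28.3% of all probes.

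In WT, fiber 8 of mouse 2 stood apart. It was the lowest WT fiber for 30 of the 39 members with values on all WT arrays, or 76.9%, against 39% of all probes. Its median over the 38 members was -0.98, with the other WT fibers between -0.037 and 0.35, and the array had the most probes with a value in its group, 34001. Its summed myofiber markers lay at 2435, with the other WT fibers from 3007 to 4180. Its endothelial markers summed to 5.33 against 7.73 to 21.2 and its Schwann cell markers to 0.529 against 0.114 to 0.299, and the part of these in the results was not tested. Without it 11 members were called in Smn1deltaSKM against WT, all lower, beside 26% of all probes, and the Sm gene *Snrpd3* passed at -0.86 (limma, adjusted p = 0.0490), as did *Lsm4*, *Lsm7*, *Lsm10*, *Snrnp35* and *Lsm6* at 1 probe each. Leaving out this fiber or the 3 fibers of Smn1deltaSKM was chosen after the values had been seen.

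**Figure D4:**
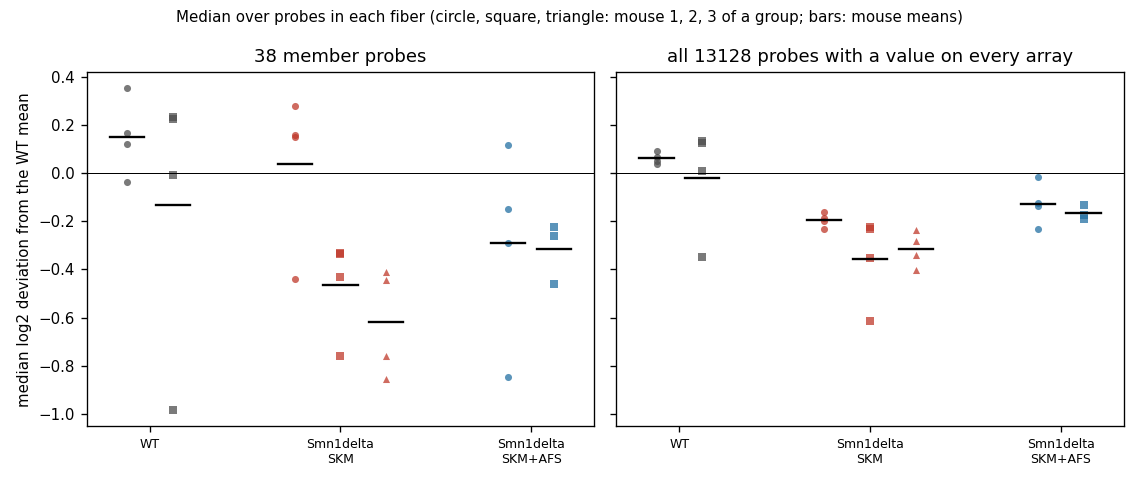
Median log2 deviation from the WT mean (vertical axis) in each fiber, over the 38 member probes (left) and over all 13128 probes with a value on every array (right), with circles, squares and triangles for mice 1, 2 and 3 of a group and a bar at each mouse mean. WT fiber 8 lies at -0.98 on the left, and 3 of the 4 fibers of Smn1deltaSKM mouse 1 lie from 0.15 to 0.28, above all fibers of mice 2 and 3, which lie from -0.85 to -0.33.

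The members varied together from fiber to fiber. After the group mean was taken off, 688 pairs of member probes of different genes had a mean correlation of 0.32 over the 27 fibers, with a range from -0.83 to 0.97, while all pairs of the 13128 probes had a mean of 0.035. Without WT fiber 8 these means were 0.26 and 0.026. The highest value joined *Snrpe* (A_51_P363630) and *Snrpd2* (A_55_P1954212), 2 genes of the Sm ring, at 0.97, and the lowest joined *Snrnp200* and *Snrnp35* at -0.83. In Smn1deltaSKM mice 1, 2 and 3, *Snrnp200* (A_51_P292877) had means of 0.98, -1.26 and -1.12, and *Snrnp35* (A_55_P1976689) of 0.084, 1.04 and 1.32. Only the group mean was taken off, so that differences between the mice and slides of a group enter the correlations. The fibers share mice, slides and an amplification of their own, and the correlations are given as a description. The median SD between the fibers of a mouse was 0.46 for the members and 0.45 for all tested probes, and between the mouse means of a group 0.35 and 0.37.

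**Figure D5:**
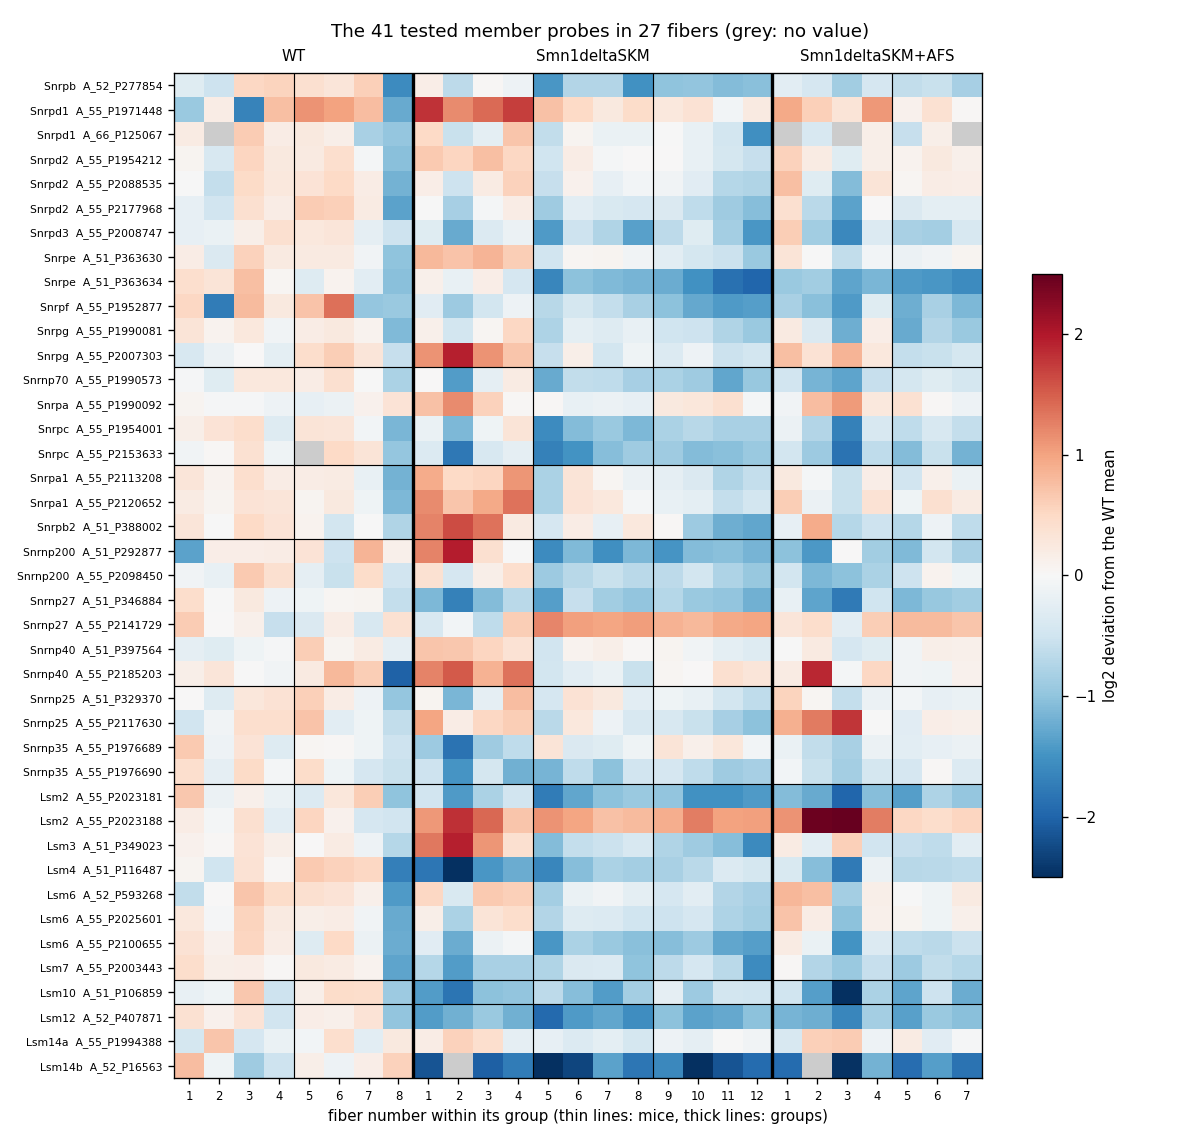
Log2 deviation from the WT mean of the 41 tested member probes (rows, grouped by family) in the 27 fibers (columns, by group and mouse), from blue (lower) through white to red (higher), with grey for no value. Lsm12 and Lsm14b are blue in all fibers of both deleted groups that have a value, and the column of WT fiber 8 holds the lowest WT value in 30 of 39 rows.

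The second question was whether the members differed in the mice that had received amniotic fluid stem cells. Against WT, which serves as control in both comparisons, 2 of 41 members were called in Smn1deltaSKM+AFS, both lower, or 4.88%, beside 7.34% of all probes, of which 4.35% were lower and 2.99% higher. *Lsm14b* differed by -1.78 ± 0.29 (SE, limma, adjusted p = 0.0195) and *Lsm12* by -1.16 ± 0.29 (SE, limma, adjusted p = 0.0496). With mouse 1 or mouse 2 of this group left out, no member was called, and 5 and 7 members had an unadjusted p under 0.05 in limma. Over all probes 0% and 0.483% were then called, and 16.8% and 22.5% had such a p. Of the 41 members 28 were lower, beside 53.1% of all probes, with a median of -0.32 against -0.065 over all probes. The mouse means did not overlap with those of WT for 24 of 41 members, 20 of them, or 48.8% of the members, lower. Over all probes they did not overlap for 68%, with 37.2% lower and 30.8% higher. The values of the other members called in Smn1deltaSKM were -1.20 for *Lsm2*, -0.96 for *Snrnp27* and -0.95 for *Snrpc*, with adjusted p in limma of 0.0577, 0.0711 and 0.0867. The lowest adjusted p among the 12 probes of the Sm ring was 0.109 in limma, for *Snrpf*.

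Set directly against Smn1deltaSKM, Smn1deltaSKM+AFS had no called member, and 0% of all probes were called. No member had an unadjusted p under 0.05 in limma either, where 3.22% of all probes had one, and every other model run on the members also gave 0 calls. The median difference of the members was 0.058 and that of all probes 0.061. The mice of the groups did not overlap for 2 of 41 members, *Lsm14b* and *Snrnp35*, both higher in the treated mice. Over all probes they did not overlap for 16.5%, with 12.3% higher and 4.23% lower. The 4 largest differences were those of *Snrnp25* (A_55_P2117630) at 0.62 ± 0.44 (SE), *Snrnp35* (A_55_P1976690) at 0.45 ± 0.26 (SE), *Lsm4* at 0.40 ± 0.37 (SE) and *Snrpb2* at -0.39 ± 0.52 (SE). *Snrpb2* became 0.13 without Smn1deltaSKM mouse 1. *Lsm14b* differed by 0.27 ± 0.26 (SE) and *Lsm12* by 0.14 ± 0.27 (SE). A p that misses the threshold with 2 and 3 mice does not show that the groups are alike.

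The 2 groups shared both scan days and 1 slide. Relative to all probes, the members' median in Smn1deltaSKM+AFS against Smn1deltaSKM was -0.0028 over all arrays, 0.18 without Smn1deltaSKM mouse 1, -0.14 with the scan day in the model, and -0.018 within the later of the 2 days. Within the earlier day, with 1 mouse a group, it was -0.73, and within the shared slide, with 1 fiber a group, -0.49, and neither of these last values has a test. *Snrnp25* lay at 0.98 on the earlier day, 0.33 on the later day and -0.63 on the shared slide.

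Other genes of the pathway were read from lists of the SMN complex, the methylosome, the import of snRNPs, the other U2, U4/U6 and U5 proteins, the minor spliceosome, decapping and histone processing. Of 62 tested probes, 8 were lower and 2 higher in Smn1deltaSKM than in WT, where 14.1% of all probes were lower and 7.34% higher, so that the count lies near or below that share. The median difference was 0.0051 for the SMN complex, -0.44 for the methylosome, -0.66 for the import list and -0.42 for the other U2, U4/U6 and U5 proteins, beside -0.14 over all probes. Of 6 methylosome probes, 2 were lower: *Prmt5*, the methyltransferase that modifies Sm proteins before they reach the SMN complex, at -1.66 ± 0.28 (SE, limma, adjusted p = 0.0107), and *Prmt7*, of the same family of enzymes, at -1.83 ± 0.28 (SE, limma, adjusted p = 0.00889), whose other probe lay at -0.36. Of 10 probes of the SMN complex, *Smn1* was lower at 1 probe and *Gemin6* higher, at 1.92 ± 0.38 (SE, limma, adjusted p = 0.0151). Its mouse means were 3.28 ± 0.15 for WT (SD, n = 2), 5.21 ± 0.53 for Smn1deltaSKM (SD, n = 3) and 5.10 ± 0.51 for Smn1deltaSKM+AFS (SD, n = 2).

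*Tgs1*, which gives snRNAs their trimethylated cap, was the 1 lower probe of 10 on the import list, at -1.34 (limma, adjusted p = 0.0276), and its other probe lay at -0.37. Of 25 probes of other U2, U4/U6 and U5 proteins, 3 were lower: *Ppih*, a cyclophilin of the U4/U6 snRNP, at -1.50 (limma, adjusted p = 0.0147; -0.60 at its other probe), *Sf3a3* of the U2 snRNP at -1.35 (limma, adjusted p = 0.0305) and *Prpf8*, the central protein of the U5 snRNP, at -1.18 (limma, adjusted p = 0.0414). In the minor spliceosome *Zcrb1* was the 1 lower probe of 4, at -2.04 ± 0.28 (SE, limma, adjusted p = 0.00730). Of 3 histone processing probes *Cstf2*, a cleavage factor, was higher at 1.75 (limma, adjusted p = 0.0136), and none of 4 decapping probes was called. In Smn1deltaSKM+AFS against WT 4 of the 62 probes were lower and 2 higher, beside 4.35% and 2.99% of all probes. In Smn1deltaSKM+AFS against Smn1deltaSKM none was called, beside 0% of all probes.

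RefSeq promoters, 250 bases before to 50 after a gene's start on GRCm38.p6, were at hand for 24 of the 30 genes, in 27 promoters. The letters CCGGAAG, the core that ETS factors bind, stood on either strand in 7 of the 27, or 25.9%, and in 8.86% of all 32851 promoters. CCAAT stood in 9 of 27, or 33.3%, against 37.4%, and GCATGCGC, the core of the NRF1 site, in 3 of 27, or 11.1%, against 2.71%. The shares over all promoters were not limited to genes with a tested probe. Both *Snrnp27* and *Snrpc*, lower at a probe each in Smn1deltaSKM, hold CCGGAAG, which is shown in capitals here within 30 bases of promoter.
Snrnp27: ttccagctgctCCGGAAGttgtggggttgt
Snrpc: tagggcagaggCCGGAAGcggaagtcctac
These windows lie at chr6:86684517-86684546 on the minus strand and chr17:27840037-27840066, and the motif begins 44 and 39 bases before the gene starts. It also stood in the promoters of *Snrpe*, *Snrpg*, *Snrpb2*, *Snrnp200* and *Lsm5*. In the reported fit the last was not tested and none of these was called. The motif did not stand in the promoters of *Lsm2* and *Lsm14b*. Nor was it found for *Lsm12*, whose promoter may not have been at hand. The part of the motif in the differences was not tested.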

How the data were processed

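RNA of single fibers was amplified by PCR and hybridized in 1 colour to Agilent mouse arrays, a step that can add spread between fibers. Per the file headers and labels, the authors extracted the deposited intensity with Agilent Feature Extraction 10.7.3.1, which subtracted the background; the authors' deposited value table, on a linear intensity scale given only above background, served as an alternative. The log2 of the processed signal minus the array's 75th percentile was used. Values were left out where a spot was not found, not well above background or marked as uneven. No member spot was saturated. Spots of a probe were averaged, and probes with values on 75% of the 27 arrays were kept. Fibers of a mouse were averaged, and limma 3.58.1 in R 4.3.3 fitted the 7 mouse means of the 3 groups, with Benjamini-Hochberg adjustment over all probes and calls at an adjusted p under 0.05. A mouse without a value was left out of that probe's fit.

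The members and all lists were chosen with earlier results of these data known. Named were the Sm and U7 genes, every called member, the 4 largest differences between the deleted groups and at most 3 called genes of a list. The script was tested on simulated data. The number of arrays limits the precision. Normalization, filters, replication, blocks, probes of a gene, left-out mice and the threshold were varied.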

Additional observations from a re-analysis of the deposited data

Results flagged for a closer look

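Dixon's test was applied to the fibers of WT and of Smn1deltaSKM+AFS for the named probes and for the members' median, 46 groups of fibers in all, of which 4 had a fiber far from the others; chance gives about 1 in 20. In WT fiber 8, the median of the members lay at -0.98, with the other 7 WT fibers from -0.037 to 0.35. In the same fiber *Snrpg* (A_55_P1990081) lay at 2.15, with the others from 3.16 to 3.56, and *Snrpc* (A_55_P2153633) at 0.39, with the others from 1.26 to 1.87. In Smn1deltaSKM+AFS fiber 2, *Snrpb2* lay at 2.80, with the others from 1.15 to 1.73.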

How the results depend on the processing

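The members called in Smn1deltaSKM against WT, 5 as reported, were 2 under quantile normalization, median centring, the authors' value table or slide as a random block (correlation 0.40), 3 with the mean of a gene's probes, 12 with mouse as a random block or at an adjusted p under 0.10, 18 with fibers as replicates, and 0 to 19 when 1 mouse was left out. The share of all probes called, 21.5% (4759 probes) as reported, moved as well, to 15.9% under quantile normalization, to 2320 probes with the slide block, and to 34.8% with the mouse block, 54.1% with fibers as replicates and 0% to 43.8% without 1 mouse. That share was 18% under median centring, 15.7% in the authors' table and 20.7% with the mean of a gene's probes. At an adjusted p under 0.10 it was not taken in either comparison with WT. The member counts at that threshold therefore cannot be set against all probes. Without the 3 fibers of Smn1deltaSKM scanned on the other day the members called were 8, beside 28.3% of all probes. Without WT fiber 8 they were 11, beside 26%. In Smn1deltaSKM+AFS against WT, 2 as reported, they were 1 under quantile normalization, median centring, the authors' value table, no filter, values on all 27 arrays or uneven spots kept, 7 with mouse as a random block, 12 with fibers as replicates, 6 at an adjusted p under 0.10 and 0 to 9 when 1 mouse was left out, where the share of all probes, 7.34% as reported, was 20.1% with the mouse block, 41.3% with fibers as replicates and 0% to 29.3% without 1 mouse. Under the normalizations and filters that gave 1, the share of all probes ran from 3.55% (quantile normalization) to 8.03% (values on all 27 arrays). The call of *Lsm12* in Smn1deltaSKM+AFS against WT was lost under 13 alternatives. With the fiber number as a replicate block and the mouse as a random block the counts were 8, 6 and 0. Over all probes the shares were then 32.9%, 18.7% and 0%. The fiber numbers did not pair the fibers. Same-numbered fibers of different groups correlated at a mean of 0.0004 over 59 pairs and others at 0.0068 over 177. The members' median relative to all probes, -0.26 in Smn1deltaSKM+AFS against WT, was -0.50 with the brightest probe of each gene, -0.050 with no filter, -0.086 under normexp, -0.15 in the authors' table, -0.13 without WT mouse 1 and -0.43 without WT mouse 2. In Smn1deltaSKM against WT, -0.20 as reported, it was -0.072 under quantile normalization, -0.075 under normexp, -0.051 in the authors' table, -0.028 with no filter, -0.063 with values on all arrays, -0.069 with the slide block, -0.35 with the mean of a gene's probes, -0.071 without the 3 fibers and -0.31 without WT fiber 8. In Smn1deltaSKM+AFS against Smn1deltaSKM, -0.0028 as reported, it was -0.25 with slide as a random block, -0.73 within the earlier scan day and -0.49 within the shared slide. The 5 called probes kept their direction under every alternative run.

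Uncalled probes near 0 changed sign. In Smn1deltaSKM against WT, *Snrpd2* A_55_P2088535 became 0.13 under quantile normalization, 0.037 under median centring, 0.14 under normexp and 0.13 in the authors' table, and A_55_P2177968 became 0.15 under normexp. *Snrpd2* A_55_P1954212 became -0.078 without WT fiber 8 and ran from -0.19 to 0.26 when 1 mouse was left out. *Snrpe* A_51_P363630 became -0.010 without the 3 fibers, -0.11 without WT fiber 8, and ran from -0.33 to 0.32 with 1 mouse left out. With 1 mouse left out *Snrpd1* A_66_P125067 ran from -0.57 to 0.12, *Snrpg* A_55_P2007303 from -0.31 to 0.48 and, in Smn1deltaSKM+AFS against Smn1deltaSKM, *Snrpb2* from -0.85 to 0.13. The causes were not tested.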
